A study of Mus musculus with 11 samples.

Results

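The genes described here are splicing factors and related RNA-binding proteins of the mouse cortex, followed through their ribosome footprints after a stroke. They were chosen by a rule on symbols, with earlier results of these data known. It takes every protein-coding gene whose symbol starts with Hnrnp, Srsf, Sf3, Prpf or Snrnp, or with Ddx or Rbm and a digit. The annotation holds 136 such genes, and 63 of the 4338 genes in the footprint table are among them. By role they are 18 hnRNP proteins, 8 SR proteins, 7 subunits of the SF3 complex, 7 Prpf and Snrnp proteins, 13 DEAD-box helicases and 10 Rbm proteins. The table is least complete for the Rbm proteins (10 of 39 genes), the DEAD-box helicases (13 of 37) and the Prpf and Snrnp proteins (7 of 20), and most complete for the hnRNP proteins (18 of 20).

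A ribosome footprint is the stretch of messenger RNA that a ribosome shields from nuclease, here micrococcal nuclease; monosomes were purified and the ribosomes captured through P0, a protein of the large subunit. All mice were wild-type C57BL6 aged 7 to 8 weeks. In the stroke animals a filament closed the right middle cerebral artery for 35 min and the cortex was taken after 3 h of reperfusion, from the occluded side (ipsilateral, 4 libraries, replicates 2, 4, 5 and 6) or the opposite side (contralateral, 4 libraries, replicates 1, 4, 5 and 6). In the sham animals (3 libraries, replicates 1, 2 and 5) the arteries were exposed without a filament, and no label gives the hemisphere that was sampled. All groups, sham included, were anaesthetised with isoflurane. The tissue entry of the 4 ipsilateral samples names the contralateral hemisphere, against their titles and descriptions, and the titles were followed. Replicates are animals operated on different days.

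Library totals were summed over the transcript used for each gene. They ran from 64460 to 256657 footprints in sham, from 137372 to 571351 in contralateral and from 35068 to 137341 in ipsilateral cortex. The ipsilateral group is thus the shallowest. The median count per splicing or RNA-binding gene was lowest in ipsilateral replicate 4, at 4, and highest in contralateral replicate 6, at 69. In ipsilateral replicate 4, 49 of the 63 genes had under 10 counts, and in sham replicate 2, 40 did. A count of 0 there still allows up to 88.0 and 47.1 CPM (a count scaled by the library's adjusted total), which is 3 counts in each library. Such limits and the intervals on shares cover counting error only. No total RNA was analysed here, so footprints combine the amount of a transcript with how often it is translated, and in bulk cortex fewer cells of a type and less RNA per cell cannot be told apart.

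Splicing removes introns from the precursor messenger RNA. The spliceosome assembles from small nuclear ribonucleoproteins: the U1 particle, which contains the Snrnp70 protein, marks the start of an intron, and the SF3 complex anchors the U2 particle at the branch site near its end. SR proteins bind exons and mostly favour their inclusion, many hnRNP proteins bind the same transcripts and often oppose it, and DEAD-box helicases use ATP to remodel RNA and the proteins on it. In neurons these proteins set a large programme of alternative exons, and several of them also act in export, transport, translation and decay of messenger RNA.

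The DEAD-box helicases are named after 4 amino acids, Asp-Glu-Ala-Asp, in the ATP-binding core. The windows below show the codons of that motif for the 3 helicases with the highest footprint level, for the X and Y copies Ddx3x and Ddx3y, and for Ddx17, the close relative of Ddx5. Each is 30 bases of the coding strand, 5′ to 3′, read from the GENCODE vM21 transcript that represents the gene (mm10), with the 12 bases of the motif in capitals.
Ddx5: cttgtccttGATGAAGCTGATaggatgctt
Ddx17: cttgtgttgGATGAGGCTGACcggatgctt
Ddx3x: ctggtgttaGATGAAGCTGACcggatgtta
Ddx3y: ttagtattgGATGAAGCTGATaggatgctg
Ddx39b: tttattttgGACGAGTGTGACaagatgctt

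Of the 13 helicases, 12 had codons for Asp-Glu-Ala-Asp in frame, once each. Ddx39b had codons for Asp-Glu-Cys-Asp in their place, the variant known from its subfamily. Over all genes of the table whose coding sequence starts with ATG, 54 of 4253 (1.27%) held the Asp-Glu-Ala-Asp codons in frame. Without the Ddx genes 42 of 4240 did (0.991%). Ddx5 and Ddx17 differed at 6 of the 30 bases, Ddx3x and Ddx3y at 8, and all pairs of the 13 helicases at 5 to 16. No 2 windows were thus identical, and the pair furthest apart was Ddx1 and Ddx39b, at 16 of 30 bases. Each window was cut around the motif, so the agreement was partly set in advance. Over the whole transcript, 2.12% of the 28-base words of Ddx3y and 9.13% of those of Ddx3x also occur in transcripts of other genes. By exact words the transcripts of the X and Y copies thus mostly differ. The share within the coding sequence alone and near matches were not counted.

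Levels between genes were compared as CPM per kb of coding sequence, since longer coding sequences carry more ribosomes. The 63 genes had a median level of 87.3 CPM per kb, against 78.7 for the 4277 genes of the table with a coding length. Together they took 1.33% of the footprints on the transcript used for each gene, pooled over all libraries, so deep libraries weigh most. As a mean over libraries, that share was 1.25% ± 0.12 (SD) in sham, 1.29% ± 0.163 in contralateral and 1.30% ± 0.0912 in ipsilateral cortex. The lowest library was contralateral replicate 4 with 1.06% (95% exact Clopper-Pearson interval 1.01% to 1.12%) and the highest contralateral replicate 6 with 1.44% (1.41% to 1.48%). The 2 extremes were both in the contralateral group, so the groups overlapped.

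The helicase Ddx5, which acts in splicing and microRNA processing, had the highest level of the 63 genes at 828 ± 172 CPM per kb (SD over 11 libraries), above 96.1% of genes. Hnrnpk, which binds cytosine-rich RNA, followed at 686 ± 119 CPM per kb, and Hnrnpa2b1, which also takes part in transport of messenger RNA, at 469 ± 86.0 CPM per kb. Srsf5 led the SR proteins at 378 ± 76.3 CPM per kb. By role, the median level was 166 CPM per kb for the hnRNP proteins, 97.3 for the SR proteins, 90.4 for the DEAD-box helicases, 60.0 for the Rbm proteins, 58.2 for the SF3 subunits and 51.0 for the Prpf and Snrnp proteins. Levels within a role spread more widely than these medians: the SR proteins ran from 33.2 (Srsf4) to 378 and the Rbm proteins from 18.6 (Rbm26) to 213 CPM per kb.

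**Figure D1:**
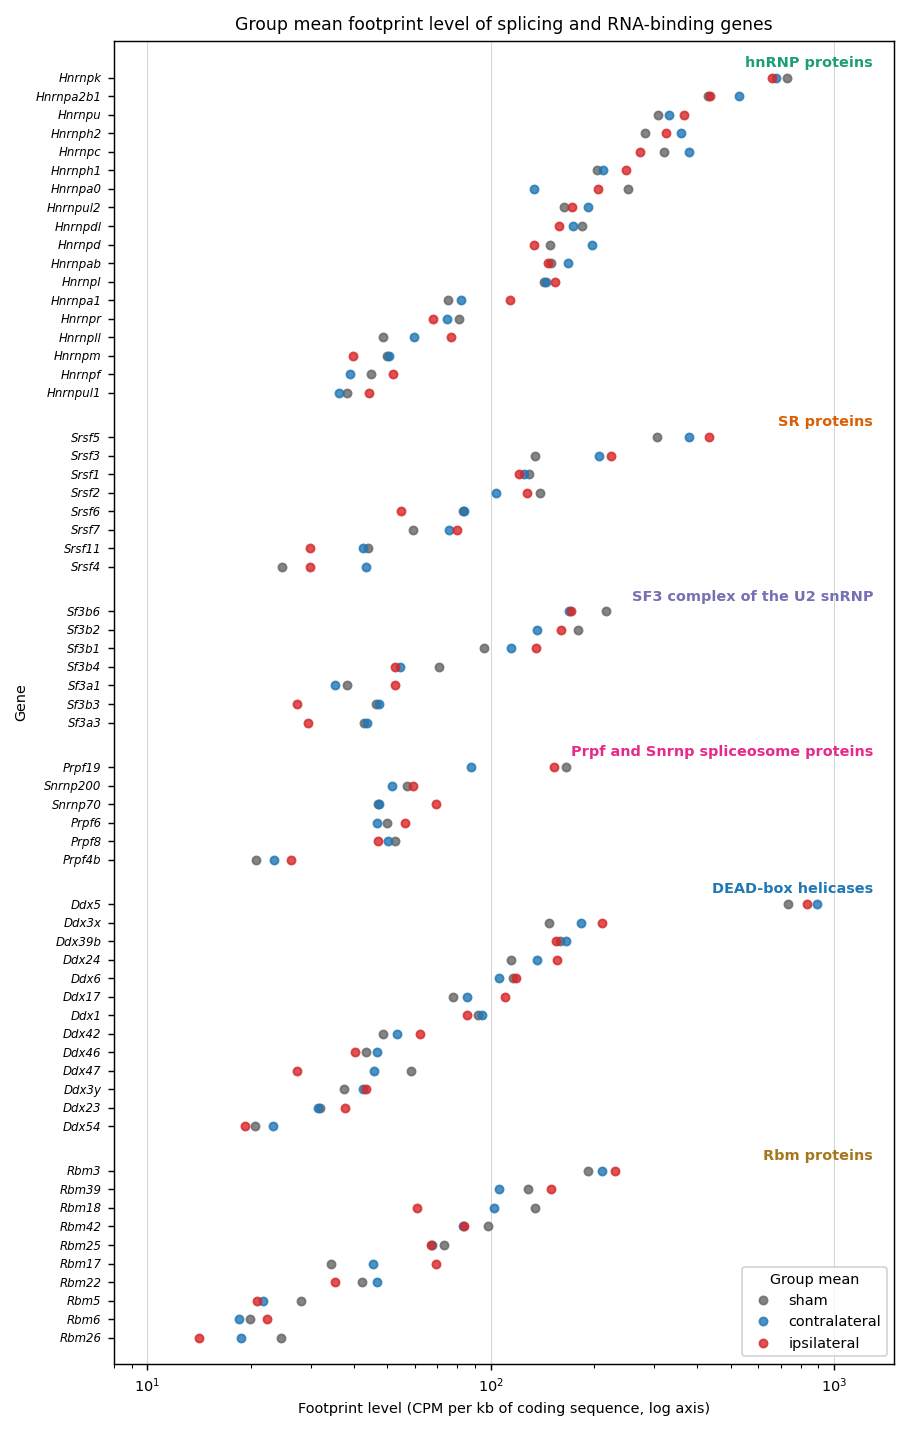
Group mean footprint level (CPM per kb of coding sequence, log axis) of 62 of the 63 genes, grouped by role, with 1 point per group (sham grey, contralateral blue, ipsilateral red). The genes shown spread from 18.6 (Rbm26) to 828 CPM per kb (Ddx5) on the mean over all libraries, and the points of the 3 groups mostly lie close together within a gene.

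Ipsilateral against sham cortex is the comparison of the ischaemic hemisphere with animals that had no occlusion. None of the 55 genes that passed the filter on low counts was called at an adjusted p under 0.05 by edgeR's quasi-likelihood test, beside 4 of all 3835 genes tested (0.104%). The lowest adjusted p among them was 0.530, for Srsf5. Of the 55, 31 lay above 0 on the log2 scale (49.9% of all genes did), and their median log2 change was 0.03, against -0.0011 over all genes. At an unadjusted p under 0.05 there were 5 genes, which is 9.09% against 7.74% of all genes. Srsf5, Hnrnpll and Hnrnpa1 were on the higher side (4.28% of all genes), and Sf3b3 and Ddx47 on the lower side (3.47%). Srsf5 was the one gene whose ipsilateral and sham libraries did not overlap, where 7.2% of all genes had such a gap, 3.91% higher and 3.29% lower in ipsilateral cortex.

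These shares are near or below the background, so the counts single out no gene of this set. What the depth could exclude was measured by the 95% interval of each change: for 36 of the 55 genes (65.5%) it lay within 2-fold either way, as for 62.1% of all genes. The fits that left out libraries filtered genes anew, so each count has its own totals. At an unadjusted p under 0.05 the count of 5 fell to 1 of 57 without sham replicate 1 (249 of all 4026 genes). It was 1 of 57 without sham replicate 5 (288 of 4022) and 2 of 54 without ipsilateral replicate 5 (328 of 3833). Without ipsilateral replicate 2, 4 or 6 it was 3 of 54, 55 and 55 (280 of 3853, 294 of 3836 and 275 of 3835). It was 6 of 59 without sham replicate 2 (295 of 4111) and 7 of 59 without both shallowest libraries (280 of 4082). Of the 55 genes, 3 passed with the replicate number as a block (248 of all 3835 genes), 1 with DESeq2 (196) and 4 with limma-voom (333). None of these fits called any of the 55 genes. DESeq2 gave no adjusted p for Hnrnpll, Hnrnpa1, Sf3b3 and Ddx47 here, so it could not have called them.

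The comparison of ipsilateral with contralateral cortex sets the occluded side against the opposite side of stroke animals. Again none of the 55 genes was called by edgeR, beside 14 of all genes (0.365%), and the lowest adjusted p was 0.386, for Prpf19. Prpf19, higher in ipsilateral cortex, and Sf3b3, lower there, had an unadjusted p under 0.05; this is 3.64% of the 55 genes against 7.61% of all genes, 4.85% on the higher and 2.76% on the lower side. The libraries of the groups did not overlap for 4 genes (7.27%, against 4.41% of all genes). These were Prpf19, Rbm39 and Sf3a1, higher in ipsilateral cortex (2.35% of all genes), and Hnrnpd, lower there (2.06%).

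Of the 55 genes 30 lay above 0, where 51.4% of all genes did, and the median log2 change was 0.01 for both. The 95% interval lay within 2-fold for 40 of the 55 genes (72.7%), against 74.1% of all genes. The count at an unadjusted p under 0.05 rose from 2 to 6 of 54 without ipsilateral replicate 2 (313 of all 3853 genes). It was 3 of 59 without sham replicate 2 (332 of 4111) and 3 of 55 without contralateral replicate 5 (257 of 3754). Without ipsilateral replicate 6 it was 3 of 55 (207 of 3835), and without ipsilateral replicate 5 it was 1 of 54 (348 of 3833). Of the 55 genes, 5 passed with the replicate block (288 of all 3835 genes), 1 with DESeq2 (182) and 4 with limma-voom (342). No gene of the set was called in any of these fits.

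The comparison of contralateral with sham cortex shows what differs away from the occluded artery, although the hemisphere of the sham cortex is unknown here. No gene at all was called by edgeR (0% of 3835), and 217 had an unadjusted p under 0.05. That is 5.66% of all genes, 2.53% higher and 3.13% lower in contralateral cortex; DESeq2 called 2 genes and limma-voom 0, none of them in this set. Among the 55 genes Prpf19 alone had an unadjusted p under 0.05, on the lower side, and it alone had libraries that did not overlap. Such a gap occurred in 7.69% of all genes, 3.39% higher and 4.3% lower. Of the 55 genes 27 lay above 0, against 49.3% of all genes, with a median log2 change of -0.01. For 49 of the 55 (89.1%) the 95% interval lay within 2-fold, against 80.6% of all genes. The count at an unadjusted p under 0.05 was 2 of 57 without sham replicate 1 (196 of all 4026 genes). It was 2 of 59 without sham replicate 2 (150 of 4111) and 3 of 55 without contralateral replicate 4 (245 of 3855). The 3 comparisons share libraries in pairs, so they are not independent of each other.

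**Figure D2:**
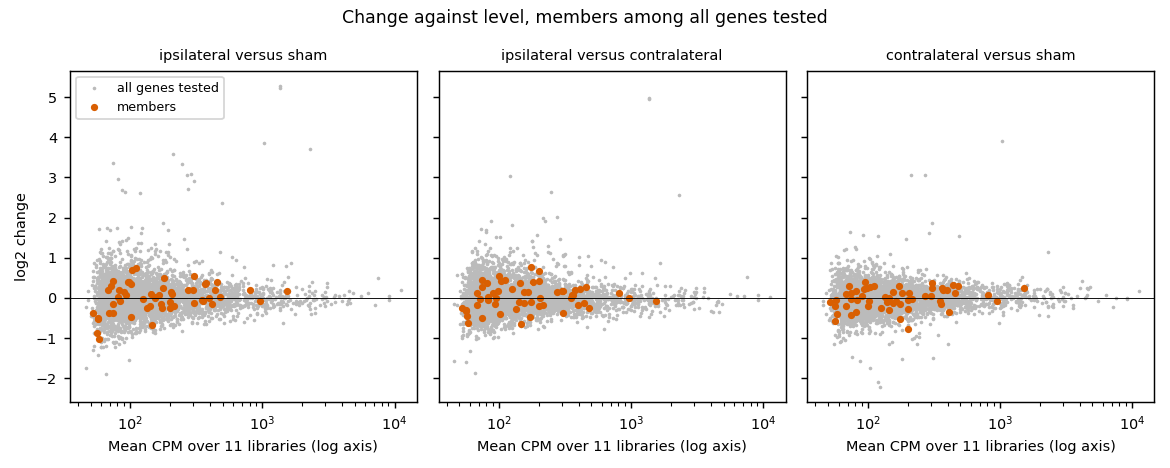
Log2 change (y axis) against mean CPM over 11 libraries (x axis, log scale) for all 3835 genes tested (grey) and the 55 splicing and RNA-binding genes (orange, labelled members), 1 panel per comparison. The orange points lie inside the grey cloud in each panel, between -1.02 and 0.77, while single other genes reach 5.28.

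The SR proteins held the gene with the smallest p against sham. Srsf5, which binds exonic enhancers, lies at chr12:80945504-80950507 on the plus strand of mm10. It had 236, 267 and 238 CPM in sham replicates 1, 2 and 5, and 389, 323, 322 and 361 CPM in ipsilateral replicates 2, 4, 5 and 6. In contralateral replicates 1, 4, 5 and 6 it had 317, 214, 296 and 394 CPM. All 4 ipsilateral libraries lay above all 3 sham libraries, whereas the contralateral libraries spanned both groups. The log2 change of ipsilateral against sham was 0.54 ± 0.23 (SE), with an unadjusted p of 0.0263 and an adjusted p of 0.530 by edgeR. Against contralateral it was 0.18 ± 0.20. Of the 28-base words of its transcript, 38.5% also occur in transcripts of other genes, most in Gm12966, and how such reads were assigned is not given in the sources used here.

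Srsf3 and Srsf1 came next among the SR proteins by level, at 194 ± 61.9 and 125 ± 34.0 CPM per kb. Their log2 changes against sham were 0.41 ± 0.35 and 0.08 ± 0.36. Srsf6 had the smallest p on the lower side of the ipsilateral to contralateral comparison among the SR proteins. It had 74.1, 84.1, 77.4 and 105 CPM in contralateral and 74.7, 29.3, 49.5 and 68.8 CPM in ipsilateral cortex, with 74.6, 94.2 and 84.7 CPM in sham. The lowest value, in ipsilateral replicate 4, stands for 1 count. Its log2 change was -0.50 ± 0.33, or -0.33 without contralateral replicate 6, and the groups overlapped. Srsf4, Srsf7 and Srsf11 did not pass the filter on low counts. Of the 5 tested SR proteins, 4 lay above 0 against sham, and none was called.

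Among the hnRNP proteins, Hnrnpk, Hnrnpa2b1 and Hnrnpu had the highest levels and the narrowest intervals. Hnrnpk had 1013, 1084 and 948 CPM in sham, 896, 750, 1003 and 1117 in contralateral and 1106, 645, 792 and 1144 in ipsilateral cortex. Its log2 change of ipsilateral against sham was -0.08 (95% interval -0.44 to 0.28). The groups overlapped, and the sign turned to 0.02 without ipsilateral replicate 4. Of the words of the Hnrnpk transcript, 40.6% occur in other genes. Hnrnpu, a scaffold protein of the nucleus, differed by 0.20 on the same scale (-0.15 to 0.54), or 0.077 without sham replicate 2, and Hnrnpa2b1 by 0.03 (-0.37 to 0.44). Each of these 3 intervals excludes a 2-fold difference in either direction.

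Hnrnpll, known as a regulator of alternative exons of Cd45 in lymphocytes, and Hnrnpa1, known for repressing exon inclusion, had the largest positive changes of the hnRNP proteins against sham. Hnrnpll lies at chr17:80029487-80062334 (minus strand). It had 90.3, 78.5 and 90.0 CPM in sham, 162, 45.9, 94.2 and 123 in contralateral and 179, 88.0, 111 and 164 in ipsilateral cortex. Ipsilateral replicate 4 lay within the sham range, and the contralateral libraries spread on both sides of it. The log2 change against sham was 0.74 ± 0.34 (edgeR, adjusted p = 0.591). Hnrnpa1 lies at chr15:103240432-103246692 (plus strand). It had 62.8, 110 and 79.4 CPM in sham, 115, 76.5, 84.1 and 92.4 in contralateral and 142, 147, 136 and 86.0 in ipsilateral cortex. Ipsilateral replicates 2, 4 and 5 were above all sham and contralateral ones and replicate 6 was not. The log2 change against sham was 0.70 ± 0.33 (edgeR, adjusted p = 0.629). Of the words of the Hnrnpa1 transcript, 48.8% occur in other genes.

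Hnrnpd, also known as AUF1, a binder of AU-rich elements in messenger RNA, had 189, 191, 188 and 270 CPM in contralateral and 179, 58.7, 186 and 146 CPM in ipsilateral cortex. The 2 groups did not overlap, but the gap between 186 and 188 CPM was small, and the sham values of 208, 94.2 and 175 CPM spanned it. The 58.7 CPM of ipsilateral replicate 4 stands for 2 counts. The log2 change of ipsilateral against contralateral was -0.47 ± 0.25 (edgeR, adjusted p = 0.680), and -0.29 without contralateral replicate 6. Hnrnpc, a binder of uridine tracts, had 310, 252, 407 and 453 CPM in contralateral, 448, 147, 161 and 267 CPM in ipsilateral and 298, 236 and 365 CPM in sham cortex. Ipsilateral replicate 2 was among its highest libraries and replicates 4 and 5 were its lowest, and the log2 change was -0.38 ± 0.25 against contralateral. It was -0.86 without ipsilateral replicate 2, -0.20 without ipsilateral replicate 5, -0.25 without contralateral replicate 6 and -0.62 with the replicate block. Hnrnpm had 137, 94.2 and 95.3 CPM in sham and 74.7, 117, 61.9 and 94.6 CPM in ipsilateral cortex, a log2 change of -0.47 ± 0.33, or -0.21 without sham replicate 1. Its groups overlapped, and its transcript overlaps that of March2 by 1169 bases on the same strand, so reads of the 2 genes may be mixed there.

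Hnrnph2 and Hnrnpa2b1 had the smallest p of the hnRNP proteins on the higher side in contralateral against sham cortex. Hnrnph2, which binds guanine-rich RNA, had 444, 298 and 397 CPM in sham, 391, 344, 565 and 625 in contralateral and 471, 352, 408 and 516 in ipsilateral cortex. Its log2 change was 0.33 ± 0.20, or 0.18 without contralateral replicate 6, and 58.3% of its words occur in other genes. Hnrnpa2b1 had 432, 361 and 524 CPM in sham, 539, 459, 552 and 622 in contralateral and 583, 381, 408 and 413 in ipsilateral cortex, with a log2 change of 0.29 ± 0.18, or 0.44 without sham replicate 5. Both groups overlapped sham. Of the 17 tested hnRNP proteins 11 lay above 0 in ipsilateral against sham, 8 against contralateral, and none was called; Hnrnpf did not pass the filter.

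The SF3 complex, which helps U2 to recognise the branch site, had members on both sides of 0. Sf3b3, a large scaffold subunit at chr8:110810239-110846787 (minus strand), had 177, 126 and 207 CPM in sham and 182, 138, 178 and 194 CPM in contralateral cortex. It had 135, 58.7, 49.5 and 155 CPM in ipsilateral replicates 2, 4, 5 and 6. Replicates 4 and 5, the shallowest ipsilateral libraries, were below every sham and contralateral library, and replicates 2 and 6 were within the sham range. In replicates 4 and 5 the values stand for only 2 and 4 counts. The log2 change was -0.66 ± 0.30 against sham (edgeR, adjusted p = 0.589) and -0.65 ± 0.27 against contralateral (adjusted p = 0.530). The change against sham moved between -0.92, without ipsilateral replicate 6, and -0.44, without ipsilateral replicate 5, where the change against contralateral was -0.43.

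Sf3a1 had 142, 117, 136 and 103 CPM in ipsilateral, 94.3, 61.2, 94.2 and 85.3 CPM in contralateral and 114, 62.8 and 95.3 CPM in sham cortex. Every ipsilateral library was above every contralateral one, but not above every sham one; the log2 change against contralateral was 0.55 ± 0.28 (edgeR, adjusted p = 0.656). Sf3b2 had 420, 597 and 402 CPM in sham, 411, 344, 357 and 322 in contralateral and 314, 440, 483 and 447 in ipsilateral cortex. Its contralateral to sham change was -0.36 ± 0.19 on the log2 scale, with 1 contralateral library inside the sham range, and -0.20 without sham replicate 2. Sf3b4 had 102, 94.2 and 74.1 CPM in sham, 80.8, 61.2, 77.4 and 56.8 in contralateral, and 89.7, 0, 74.2 and 103 CPM in ipsilateral cortex; the 0 was in the shallowest library, where it allows up to 88.0 CPM.

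Sf3b1, the largest SF3B subunit, which grips the branch site, had a log2 change of 0.41 ± 0.22 against sham and 0.27 ± 0.20 against contralateral. Sf3b6 had the highest level of the complex per kb of coding sequence, at 183 ± 52.3, followed by Sf3b2 at 157 ± 31.0 and Sf3b1 at 117 ± 30.0 CPM per kb. This order depends on the length used: per kb of the full transcript Sf3b2 was at 128, Sf3b1 at 73.8 and Sf3b6 at 58.1 CPM. All 7 SF3 subunits passed the filter. Of these, 2 lay above 0 in ipsilateral against sham cortex, 4 against contralateral, and 1 in contralateral against sham. Subunits of 1 complex thus did not lie on 1 side, and none was called.

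Prpf19, the ubiquitin ligase of the complex that stabilises the active spliceosome, had the smallest p of the 55 genes in any comparison. It lies at chr19:10895231-10909559 (plus strand). It had 200, 346 and 207 CPM in sham, 128, 130, 125 and 147 in contralateral and 150, 293, 285 and 198 in ipsilateral cortex. All 4 contralateral libraries were below all libraries of both other groups, by a narrow gap to ipsilateral replicate 2. The log2 change was -0.78 ± 0.24 in contralateral against sham (unadjusted p = 0.00214, edgeR adjusted p = 0.663) and 0.67 ± 0.24 in ipsilateral against contralateral (unadjusted p = 0.00925, adjusted p = 0.386). Ipsilateral and sham cortex differed by -0.11 ± 0.26. These first 2 changes share the 4 contralateral libraries, so they are not separate observations. The change in contralateral cortex was -0.58 without sham replicate 2 and ipsilateral replicate 4, the 2 shallowest libraries.

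Snrnp200, the helicase that unwinds U4 from U6, had a level of 55.9 ± 15.1 CPM per kb and a log2 change against sham of -0.06 ± 0.23. Snrnp70, a protein of the U1 particle, had 55.2 ± 17.6 CPM per kb and a change of 0.41 ± 0.39. Of the 6 tested Prpf and Snrnp genes 3 lay above 0 in ipsilateral against sham, 5 against contralateral and 1 in contralateral against sham, and none was called.

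**Figure D3:**
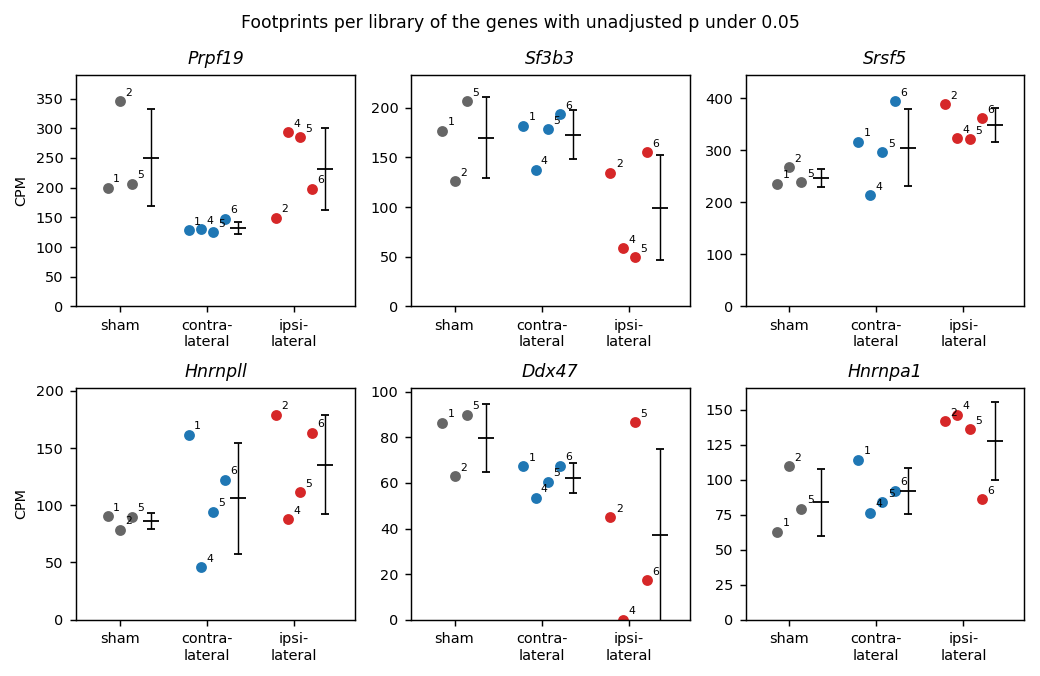
CPM per library (y axis, from 0) of the 6 genes with an unadjusted p under 0.05 in any comparison; points are libraries labelled with their replicate number, and the bars beside them show mean ± SD of each group (n = 3 sham, 4 contralateral, 4 ipsilateral). The 4 contralateral libraries of Prpf19 lie together at 125 to 147 CPM, and the ipsilateral libraries of Sf3b3 and Ddx47 spread widely.

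Ddx5 illustrates the DEAD-box helicases at the highest depth. It had 1649, 848 and 1567 CPM in sham, 1691, 1308, 1682 and 1920 in contralateral and 1838, 1144, 1682 and 1480 in ipsilateral cortex. The lowest library was sham replicate 2, and the groups overlapped. The log2 change of ipsilateral against sham was 0.17 (95% interval -0.20 to 0.55) and turned to -0.05 without sham replicate 2. Of the words of its transcript 33.1% occur in other genes. Ddx17, which often acts alongside Ddx5, had 161, 126 and 169 CPM in sham, 189, 122, 172 and 185 in contralateral and 164, 147, 260 and 293 in ipsilateral cortex. Ipsilateral replicates 5 and 6 were above all other libraries and replicates 2 and 4 were not; the log2 change was 0.50 ± 0.26 against sham and 0.39 ± 0.23 against contralateral. Without ipsilateral replicate 6 they were 0.29 and 0.18. Ddx39b, which acts in splicing and in export of messenger RNA, had 160 ± 49.6 CPM per kb and a change of 0.11 ± 0.28 against sham.

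Ddx47, a helicase of ribosomal RNA processing, had the lowest change of the 55 genes against sham. It lies at chr6:135011612-135023776 (plus strand). It had 86.4, 62.8 and 90.0 CPM in sham, 67.4, 53.5, 60.6 and 67.5 in contralateral and 44.8, 0, 86.6 and 17.2 in ipsilateral cortex. Ipsilateral replicate 5 was within the sham range, and the 0 of replicate 4 allows up to 88.0 CPM, so that library does not tell low from unchanged. The 17.2 CPM of ipsilateral replicate 6 stands for 2 counts. The log2 change was -1.02 ± 0.47 (edgeR, adjusted p = 0.591), and -0.69 without ipsilateral replicate 6.

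Ddx3x, which helps ribosomes through structured leaders, and its Y-linked copy Ddx3y were both read in all 11 libraries. Ddx3x had 306, 220 and 355 CPM in sham, 384, 352, 303 and 417 in contralateral and 389, 675, 334 and 284 in ipsilateral cortex. Ddx3y had 78.5, 47.1 and 95.3 CPM in sham, 108, 38.2, 77.4 and 112 in contralateral and 97.2, 58.7, 74.2 and 112 in ipsilateral cortex. The highest Ddx3x value was in ipsilateral replicate 4, from 23 counts. Ddx3y had 2 counts in that library, too few to rank it against its other libraries. Per kb of coding sequence Ddx3x stood at 184 ± 58.7 and Ddx3y at 41.4 ± 13.0 CPM. Their log2 changes against sham were 0.34 ± 0.24 and 0.20 ± 0.37, and against contralateral 0.08 ± 0.21 and 0.03 ± 0.32. The change of Ddx3x against sham was 0.14 without ipsilateral replicate 4 and that of Ddx3y 0.060 without ipsilateral replicate 6. Of the 12 tested helicases 8 lay above 0 in ipsilateral against sham, 6 against contralateral and 7 in contralateral against sham. None was called, and Ddx54 did not pass the filter.

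Among the Rbm proteins, Rbm3, which is induced by mild cold, had 82.5, 110 and 74.1 CPM in sham, 87.6, 91.8, 114 and 95.9 in contralateral and 164, 117, 49.5 and 94.6 in ipsilateral cortex. The highest and the lowest library of all 11 were both ipsilateral, but the 4 ipsilateral values stand for only 22, 4, 4 and 11 counts. The log2 change against sham was 0.41 ± 0.35 and fell to -0.03 without ipsilateral replicate 2. Cirbp, the other well-known cold-inducible RNA-binding protein and not part of the set, had 118, 110 and 143 CPM in sham, 80.8, 76.5, 121 and 114 in contralateral and 164, 29.3, 37.1 and 86.0 in ipsilateral cortex. Its log2 change against sham was -0.39 ± 0.35 and its spread was also widest on the ipsilateral side, where the values of replicates 4 and 5 stand for 1 and 3 counts. Recovery cages were temperature-controlled per the study's design text, and body temperatures were not analysed here.

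Rbm39, a splicing coactivator related to U2AF, had 239, 264, 235 and 207 CPM in ipsilateral, 195, 107, 165 and 199 in contralateral and 196, 173 and 238 in sham cortex. All ipsilateral libraries were above all contralateral ones, and sham lay between and across them. The log2 change against contralateral was 0.43 ± 0.23 (edgeR, adjusted p = 0.680). Rbm26 had 90.3, 31.4 and 101 CPM in sham, 47.2, 61.2, 60.6 and 56.8 in contralateral and 74.7, 29.3, 49.5 and 17.2 in ipsilateral cortex, with a log2 change of -0.86 ± 0.46 against sham and -0.57 ± 0.36 for contralateral against sham. Without ipsilateral replicate 6 the former was -0.51. Sham replicate 2 was within the ipsilateral range, so the groups overlapped. That sham value stands for 2 counts, and those of ipsilateral replicates 4, 5 and 6 for 1, 4 and 2 counts. Rbm18 had 96.1 ± 52.2 CPM per kb, below Rbm3 (213 ± 63.2) and Rbm39 (128 ± 27.7), and like Rbm17 had too few counts for the test. Of the 8 tested Rbm genes 3 lay above 0 against sham, 4 against contralateral, 2 in contralateral against sham, and none was called.

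**Figure D4:**
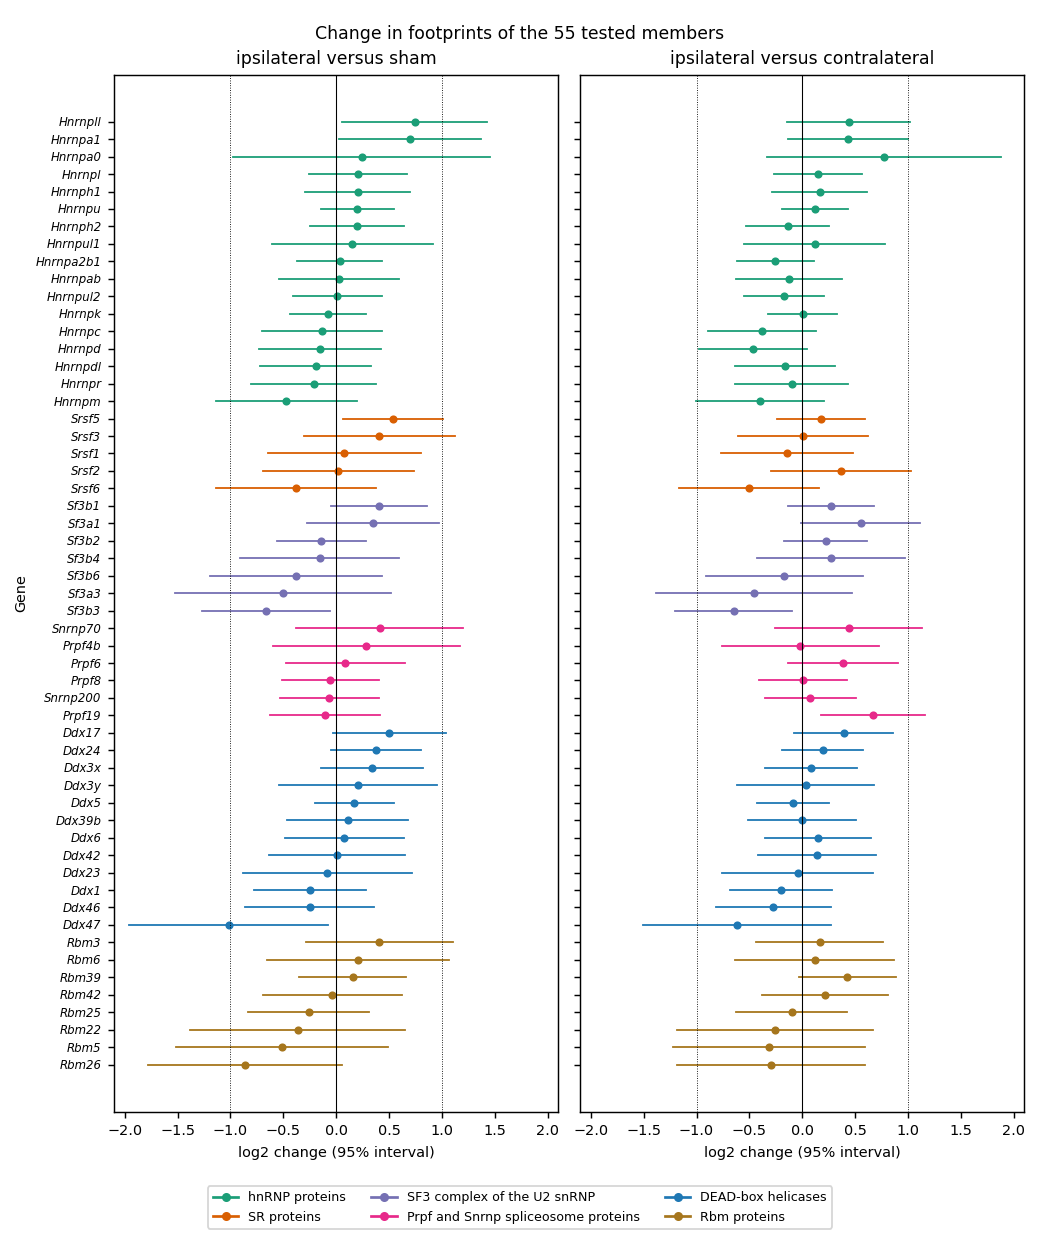
Log2 change with its 95% interval (x axis; dotted lines mark 2-fold) for the 55 tested genes, coloured by role, in ipsilateral against sham cortex (left) and against contralateral cortex (right). Most intervals cross 0; on the left 36 lie within the dotted lines and on the right 40 do.

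A further 6 lists of other genes of RNA processing were set beside these. In ipsilateral against sham cortex, 6 of 15 tested core snRNP and splice-site factors lay above 0, as did 7 of 8 SR-related proteins and kinases, 9 of 16 neuronal splicing regulators, 8 of 18 FET, TDP-43 and related proteins, 10 of 16 stress granule and transport proteins, and 6 of 10 DEAH, eIF4A and exon junction genes. No gene of the 6 lists was called in any comparison by edgeR, and 5 of their 83 tested genes (6.02%) had an unadjusted p under 0.05 in ipsilateral against sham cortex, where 7.74% of all genes did. The smallest p belonged to Sfpq, a protein of nuclear paraspeckles. It had 130, 62.8 and 117 CPM in sham, 121, 145, 185 and 114 in contralateral and 232, 205, 235 and 250 in ipsilateral cortex, so that every ipsilateral library was above every other one. Its log2 change was 1.04 ± 0.27 against sham (edgeR, adjusted p = 0.0978) and 0.74 ± 0.23 against contralateral (adjusted p = 0.220). Atxn2l, a stress granule protein, followed with 0.89 ± 0.31 against sham (adjusted p = 0.381). On the lower side, 3 genes had an unadjusted p under 0.05 against sham by edgeR. Pspc1, another paraspeckle protein, had -0.73 ± 0.30 (adjusted p = 0.506). Pura, of the stress granule and transport list, had -0.69 ± 0.32 (adjusted p = 0.599). Puf60, which assists U2AF, had -0.62 ± 0.28 (adjusted p = 0.571). Pura and Puf60 were also lower in contralateral than in sham cortex, with log2 changes of -0.60 ± 0.26 and -0.69 ± 0.24. Mean CPM of Puf60 was 201 in sham, 131 in contralateral and 129 in ipsilateral cortex.

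Markers of cell types were read in the same libraries. All 8 tested oligodendrocyte markers lay above 0 in ipsilateral cortex against both other groups, with 4 called against contralateral and 0 against sham, and the summed level of the list was 2044 to 2780 CPM in sham, 2035 to 2830 in contralateral and 2672 to 6023 in ipsilateral cortex. All 8 tested microglia markers also lay above 0, none called, with sums of 911 to 1202, 1219 to 1445 and 1559 to 2073 CPM. Neuron markers (14 of 15 tested) summed to 19460 to 21240 CPM in sham, 19110 to 22140 in contralateral and 17840 to 21170 in ipsilateral cortex, and astrocyte markers (12 of 12) to 10340 to 13720, 11720 to 15960 and 11960 to 12900 CPM. All 4 tested blood markers lay above 0 in ipsilateral against contralateral cortex, with 2 called, and all 4 lay below 0 in contralateral against sham. Of the endothelial and pericyte markers 1 of 10, Vtn, was in the table. No marker in the table was at 0 in any library. The defining markers of neurons and astrocytes, such as Snap25 and Slc1a2, were thus read in all libraries labelled cortex. The part of these markers in the values of the splicing and RNA-binding genes was not tested.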

How the data were processed

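The authors deposited raw counts of footprints for Ensembl transcripts in 11 libraries; per the submitters' processing notes Bowtie2, edgeR and mm10 were used, without versions or roles. How reads were counted, filtered and assigned to strands is not given in the sources used here. Of 9784 transcripts (lowest summed count 101), 9736 matched GENCODE vM21; the other 48 (0.306% of counts) were left out. For each of the 4338 genes the transcript with most counts over all libraries was used; of the 34 genes of the set with several transcripts, 19 had transcripts with identical counts in all libraries, so a sum could count reads repeatedly. Of the 63 genes, 29 had 1 transcript in the table, and the representative of Hnrnpdl is a decay-targeted transcript.

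The test was edgeR (4.0.16, under R 4.3.3), with filterByExpr (minimum count 10; 3835 genes kept, 503 removed, 55 of the 63 genes kept), TMM scaling, robust quasi-likelihood fits of all 11 libraries without a block, and Benjamini-Hochberg adjustment over all genes tested. The biological coefficient of variation was 0.171. CPM are counts scaled by the TMM-adjusted library total. On data simulated for ipsilateral against sham, with 200 genes changed, 91% of 4-fold and 43% of 2-fold changes were recovered at this depth, with 9 false calls. The simulation gave every gene the same spread, whereas the spread of real genes differs, so these rates need not hold for single genes of the set. Alternatives were DESeq2 1.42.0, limma-voom (limma 3.58.1), other scalings and filters, a replicate block and leaving out libraries. The replicate number is the day of surgery per the series' design text; deviations from group means correlated at -0.139 to 0.224 (median 0.131) over 7 same-number pairs and -0.255 to 0.259 (median -0.03) over 33 others, across genes. Whether same-numbered hemispheres came from 1 animal is not stated. Libraries within a group differed by 1.36 to 2.82 chi-square per degree of freedom, so none was a copy.

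The genes named are the 3 of each role with the highest level, the 4 with the smallest p in either direction of each comparison, and Rbm3, Ddx3x and Ddx3y. Members and lists were chosen with earlier results of these data known. Sharing is the share of a transcript's 28-base words found in transcripts of other genes. It was over 10% for 18 of the 63 genes and 0 for 26. Beside the shares given above, it was 56.1% for Sf3b4, 38.6% for Srsf3, 29.2% for Hnrnpm and 22.6% for Hnrnpc. For Rbm3 it was 16.7%, for Prpf19 15.8% and for Hnrnpa2b1 14.6%. Among the 63 genes, 1 is not reported here by name.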

Additional observations from a re-analysis of the deposited data

Results flagged for a closer look

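Among 64 groups of 4 libraries checked for a library far from the others, 2 were picked out; chance alone picks about 1 in 20 groups. Hnrnpd had 270.0 CPM in contralateral replicate 6, where the other contralateral libraries had 188.4 to 191.2 CPM. Hnrnpa2b1 had 582.9 CPM in ipsilateral replicate 2, where the other ipsilateral libraries had 381.3 to 413.0 CPM. Contralateral replicate 6 is the deepest library of the series, and ipsilateral replicate 2 the deepest of its group.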

How the results depend on the processing

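In each of the 20 alternative fits, none of the splicing and RNA-binding genes was called in any of the 3 comparisons. The lowest adjusted p was 0.208, in the edgeR fit of ipsilateral against contralateral cortex without ipsilateral replicate 2. DESeq2 gave some genes no adjusted p and could not call them, among them Hnrnpll, Hnrnpa1, Sf3b3 and Ddx47 against sham and Srsf6 against contralateral. The median log2 change of the set ran from -0.04 to 0.11 against sham and -0.06 to 0.10 against contralateral. For contralateral against sham it ran from -0.05 to 0.07. The lowest and highest values came from leaving out 1 library. The replicate block changed no call, and it turned Rbm3 in ipsilateral against contralateral cortex to -0.17. Leaving out 1 library in turn changed the sign of 7 of the 36 changes of single named genes that were followed this way. In ipsilateral against sham cortex the range was -0.028 to 0.63 for Rbm3, -0.048 to 0.33 for Ddx5 and -0.19 to 0.017 for Hnrnpk. In ipsilateral against contralateral cortex it was -0.29 to 0.38 for Rbm3, -0.12 to 0.22 for Ddx3x and -0.12 to 0.27 for Ddx3y, and in contralateral against sham -0.070 to 0.35 for Ddx3y. Without the 2 shallowest libraries Hnrnpk against sham was 0.053 and Ddx3x against contralateral -0.13. Per kb of the full transcript in place of the coding sequence, the level of Ddx5 was 429. Within their roles Hnrnpu went from rank 3 to 8, Srsf1 from 3 to 8 and Rbm3 from 1 to 5. Rbm18 went from 3 to 7 and Sf3b6 from 1 to 3. Counts under 10 in most of the genes in ipsilateral replicate 4 and sham replicate 2 limit what could be seen.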
